A study of Mus musculus with 14 samples.

Results

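The 7 keratinocyte genes Krt5, Krt14, Trp63, Krt1, Krt10, Krtdap and Dmkn were followed through 4T1 tumours treated with cyclophosphamide. They were taken by gene name from the deposited count and FPKM tables and make 7 of the 54532 genes listed there. Of the 7, 5 passed the filter on low counts that left 15360 genes for testing. Krt1 and Krtdap did not pass, and their counts are given without a test. A gene that passed the filter only because 1 group is high had to differ between groups, so counts over these 5 genes are a description.

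Bulk RNA-seq was made from tumours of 4T1, a mouse mammary carcinoma line used as a model of triple-negative breast cancer. Per the labels, 1000000 cells were placed under the skin of the mammary area, and dosing started on day 9, once tumours measured about 100 mm3. The groups were PBS, the vehicle (n = 4), CTX100, cyclophosphamide at 100 mg/kg (n = 5), and CTX140, cyclophosphamide at 140 mg/kg (n = 5). Cyclophosphamide is a DNA-alkylating cytotoxic drug. All groups carried the same tumour line and received intraperitoneal injections at intervals of 6 days, 3 in all, and tumours were collected 3 days after the last. No source used here gives the strain, sex or age of the mice. Whether every library came from a mouse of its own is not stated, so a p-value here measures only how these libraries vary, which may be technical. Library totals, in units of 1000000 counts, ran from 15.2 to 17.1 for PBS, from 15.9 to 19.3 for CTX100 and from 14.4 to 18.8 for CTX140. Tumours were sequenced whole, and fewer cells of a type and less RNA per cell cannot be told apart.

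The epidermis is built by keratinocytes that divide in a basal layer and differentiate as they move outwards. Basal cells make the keratin pair Krt5 and Krt14 under the transcription factor p63, the product of Trp63, and suprabasal cells replace that pair with Krt1 and Krt10. Dmkn (dermokine) and Krtdap (keratinocyte differentiation-associated protein) encode secreted proteins of the differentiating layers. Krt5, Krt14 and Trp63 also mark the basal, myoepithelial cells of the mammary gland, so they do not by themselves mark skin.

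On mm10, Krt5 (ENSMUSG00000061527, chr15:101707070-101712898, minus strand) and Krt1 (ENSMUSG00000046834, chr15:101845426-101850794, minus) lie in the type II keratin cluster, 132527 bases apart. Krt14 (ENSMUSG00000045545, chr11:100203162-100207548, minus) and Krt10 (ENSMUSG00000019761, chr11:99385254-99389364, minus) lie in the type I cluster, 813797 bases apart. Trp63 (ENSMUSG00000022510) spans chr16:25683763-25892102 on the plus strand. Dmkn (ENSMUSG00000060962, chr7:30763756-30781063, plus) and Krtdap (ENSMUSG00000074199, chr7:30787896-30791097, plus) are neighbours, with 6832 bases between them, and Sbsn, another gene of differentiating epidermis, lies 7621 bases from Dmkn on the other side. Krt10 overlaps the antisense gene Gm11940, and since no source used here gives the strand setting of the counting, their reads cannot be told apart.

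Sequence that keratins share bears on how far their reads can be assigned. Of all windows of 50 bases in the Krt14 transcripts of GENCODE M21, 13.9% also occur in another gene, 11% in Krt16 and 3.22% in Krt17. For Krt5 the share is 12.2%, with 6.98% in Krt6a and 2.28% in Krt6b. Krt10 shares 2.37%, all with the opposite strand of Gm11940, and Trp63, Krt1, Krtdap and Dmkn share none. The longest run of Krt14 coding sequence identical to Krt16 is shown because a read inside it fits both genes. It covers coding bases 306 to 439 of 1452.
Krt14 and Krt16, 134 bases: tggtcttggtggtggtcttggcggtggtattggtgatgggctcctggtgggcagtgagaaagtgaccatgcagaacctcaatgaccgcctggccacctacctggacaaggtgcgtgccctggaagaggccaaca

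Of the 7 genes, 5 have an entry in the promoter table of RefSeq (build GRCm38.p6), and that of Krt14 starts inside the gene. The 250 bases before the start are shown for the other 4, since Krt5 and Dmkn were called higher at CTX140, Krt10 was not, and Krtdap was barely read. Capitals mark TATAAA, the TATA box, and TGANTCA, the letters bound by AP-1 factors, each searched on both strands, with no overlap between them.
Krt5, chr15:101712906-101713155, minus strand: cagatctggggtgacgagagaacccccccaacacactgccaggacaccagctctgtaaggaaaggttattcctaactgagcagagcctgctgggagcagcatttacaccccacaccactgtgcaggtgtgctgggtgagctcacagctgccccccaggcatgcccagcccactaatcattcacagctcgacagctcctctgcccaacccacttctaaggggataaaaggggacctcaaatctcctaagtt
Dmkn, chr7:30763506-30763755, plus strand: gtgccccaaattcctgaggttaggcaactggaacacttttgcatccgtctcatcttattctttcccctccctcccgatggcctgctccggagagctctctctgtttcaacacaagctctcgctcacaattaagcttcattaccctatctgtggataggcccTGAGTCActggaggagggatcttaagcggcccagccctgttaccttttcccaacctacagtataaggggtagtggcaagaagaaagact
Krt10, chr11:99389365-99389614, minus strand: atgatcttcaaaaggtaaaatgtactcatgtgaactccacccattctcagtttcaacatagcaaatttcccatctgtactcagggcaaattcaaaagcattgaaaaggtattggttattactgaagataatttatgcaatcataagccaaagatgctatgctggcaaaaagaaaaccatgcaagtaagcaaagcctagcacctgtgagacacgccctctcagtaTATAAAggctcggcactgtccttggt
Krtdap, chr7:30787655-30787904, plus strand: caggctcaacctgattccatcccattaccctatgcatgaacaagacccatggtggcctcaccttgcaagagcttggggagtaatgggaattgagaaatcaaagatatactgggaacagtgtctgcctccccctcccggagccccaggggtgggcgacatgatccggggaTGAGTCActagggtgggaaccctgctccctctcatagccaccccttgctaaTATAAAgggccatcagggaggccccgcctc
TGAGTCA, a form of TGANTCA, stood in the windows of Dmkn and Krtdap. TATAAA stood in those of Krt10 and Krtdap. The Krt5 window held neither. Over 32851 promoter windows of this length in the table, 6.75% held TGANTCA and 12.4% held TATAAA. GCCNNNGGC, the letters bound by AP-2 factors, was in none of the 4 windows and in 13.7% of all.

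At CTX140 the basal keratin pair and Dmkn were higher than in PBS. The log2 fold change was 4.79 ± 0.95 (SE) for Krt5, 3.41 ± 0.66 for Krt14 and 1.82 ± 0.40 for Dmkn, while Krt10 differed by 0.02 ± 0.26. Of the 5 genes tested, 3 were called higher and 0 lower in CTX140 against PBS, by edgeR's quasi-likelihood test at a Benjamini-Hochberg adjusted p under 0.05. Over all genes tested 11.1% were called higher and 10.1% lower, or 21.3% in either direction. In CTX100 against PBS, 1 of the 5 was called higher, Dmkn, where 1.2% of all genes were called higher and 1.6% in either direction. In CTX140 against CTX100, edgeR called 0 of the 5, where 0.775% of all genes were called higher and 1.25% in either direction. At an unadjusted p under 0.05 that count was 3, and DESeq2 and limma each called 1, Krt5. Both comparisons with PBS share the 4 PBS libraries, and all 3 comparisons come from 1 fit. How many of all genes do not overlap between groups was not counted, so non-overlap below only describes single genes.

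**Figure D1:**
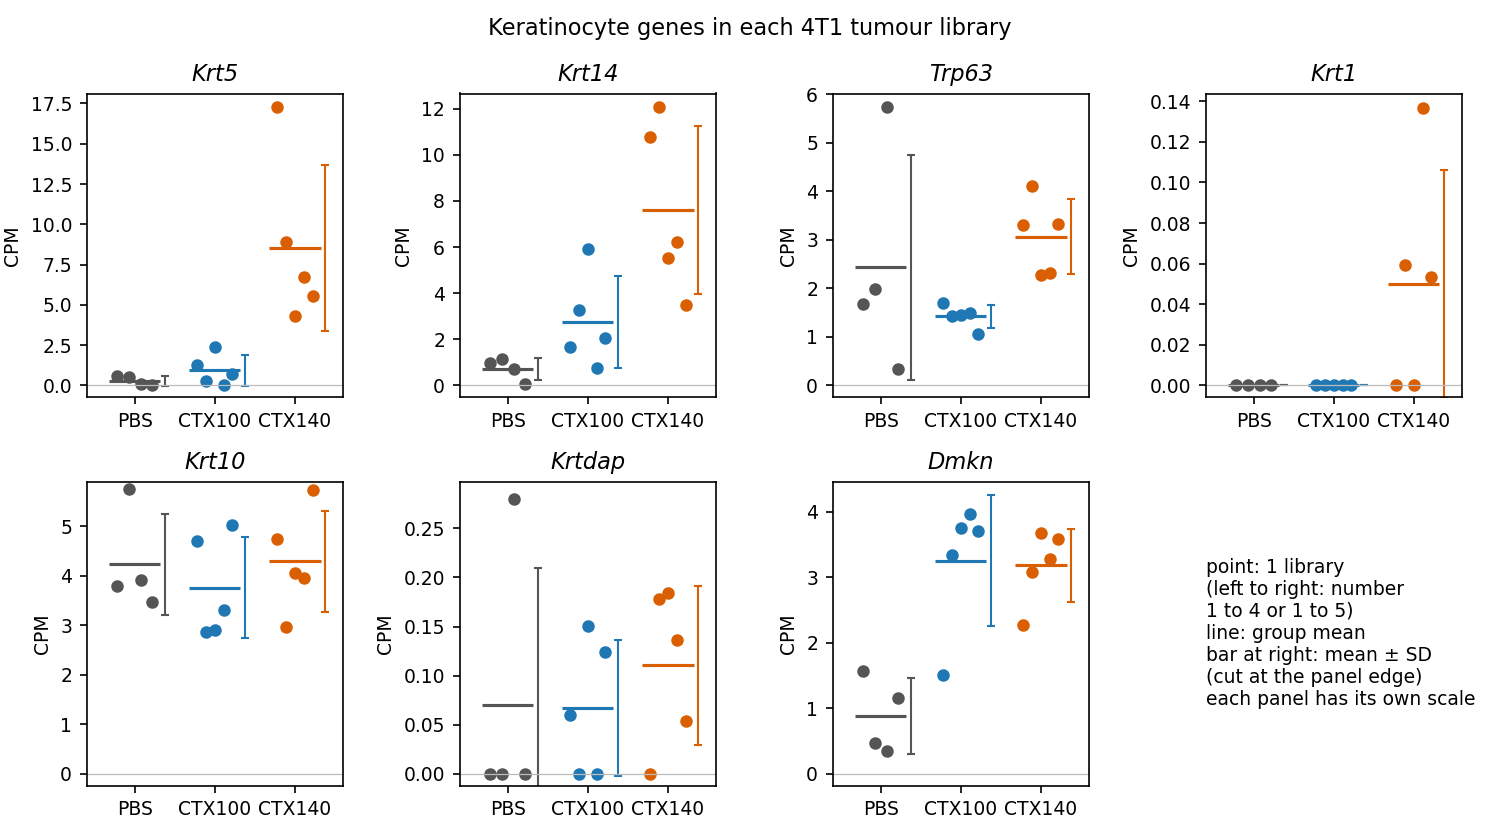
Counts per 1000000 (CPM) of the 7 genes in every library, by group from PBS to CTX140, with a point per library, a line at the group mean and a bar of 1 SD either way. All CTX140 libraries lie above all PBS libraries for Krt5, Krt14 and Dmkn, and the groups overlap for Krt10 and Trp63. The share of all genes without such overlap was not counted.

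Krt5, the type II keratin of basal cells, was at 0.603, 0.546, 0.0699 and 0 CPM in the PBS libraries, numbered 1 to 4. CPM here are counts per 1000000, with library sizes scaled by TMM factors. In CTX100 1 to 5 it was at 1.27, 0.299, 2.40, 0 and 0.742 CPM. In CTX140 1 to 5 it was at 17.3, 8.91, 4.29, 6.76 and 5.57 CPM. The lowest CTX140 library stood above the highest library of either other group, and CTX140 1 was the highest of all 14. CTX140 against PBS gave an adjusted p of 0.00355 (edgeR), and the gene stayed called in all alternatives and without any 1 library, with adjusted p-values up to 0.0166. Its log2 fold change was 5.39 without PBS 1. In CTX140 against CTX100 the groups did not overlap. The log2 fold change was 3.14 ± 0.76 with an adjusted p of 0.0534 (edgeR), which misses the threshold. In CTX100 against PBS it was 1.65 ± 0.95 (edgeR adjusted p = 0.385), and those groups overlapped. Krt6a, with which Krt5 shares sequence, had 18 reads in all CTX140 libraries together and 4 in those of PBS, where Krt5 had 711 in CTX140 and 19 in PBS.

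Krt14, the type I partner of Krt5, was at 0.964, 1.16, 0.699 and 0.0549 CPM in PBS 1 to 4. In CTX100 1 to 5 it was at 1.69, 3.29, 5.91, 0.779 and 2.04 CPM. In CTX140 1 to 5 it was at 10.8, 12.1, 5.52, 6.22 and 3.48 CPM. Every CTX140 library stood above every PBS library, CTX100 3 reached into the CTX140 range, and CTX100 4 lay within the PBS range. The adjusted p of CTX140 against PBS was 0.00291 (edgeR). In CTX100 against PBS the log2 fold change was 1.95 ± 0.65 with an adjusted p of 0.130 by edgeR and of 0.0226 by DESeq2, so the call depends on the tool. In CTX140 against CTX100 it was 1.46 ± 0.54 (edgeR adjusted p = 0.134).

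The keratin pair moved together over the libraries. Log2 CPM of Krt5 and Krt14 had a Pearson r of 0.889 and a Spearman rho of 0.912 over the 14 libraries, which include the difference between groups. The other pairs among the 5 tested genes had r between -0.283 and 0.566. The amount of Krt5 relative to Krt14, as a ratio of FPKM (fragments scaled by transcript length and library size), was 0.339 in PBS, 0.275 in CTX100 and 0.898 in CTX140, computed from group means. In single libraries it lay between 0 and 0.500 in PBS, 0 and 0.600 in CTX100, and 0.591 and 1.28 in CTX140. PBS and CTX140 did not overlap in this ratio, while the highest CTX100 library lay just inside the CTX140 range. The PBS ratios rest on 19 reads of Krt5 and 44 of Krt14.

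Trp63, which encodes the transcription factor p63, was at 1.69, 1.98, 5.73 and 0.329 CPM in PBS 1 to 4. In CTX100 1 to 5 it was at 1.69, 1.43, 1.45, 1.49 and 1.05 CPM. In CTX140 1 to 5 it was at 3.30, 4.10, 2.27, 2.32 and 3.32 CPM. PBS held both the highest and the lowest of the 14 libraries, so it overlapped both other groups, while CTX140 and CTX100 did not overlap. No comparison passed the test, with log2 fold changes of 0.34 ± 0.49 for CTX140 against PBS (edgeR adjusted p = 0.648) and 1.10 ± 0.47 for CTX140 against CTX100 (adjusted p = 0.183). For CTX100 against PBS it was -0.76 ± 0.50 (adjusted p = 0.453), and 0.11 without PBS 3. Without PBS 3, CTX140 against PBS gave 1.21 (adjusted p = 0.0848), and without PBS 4 it gave -0.05. The gene's fold change thus depended on single PBS libraries, and its adjusted p over all alternatives of CTX140 against PBS ran from 0.0848 to 0.950.

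**Figure D2:**
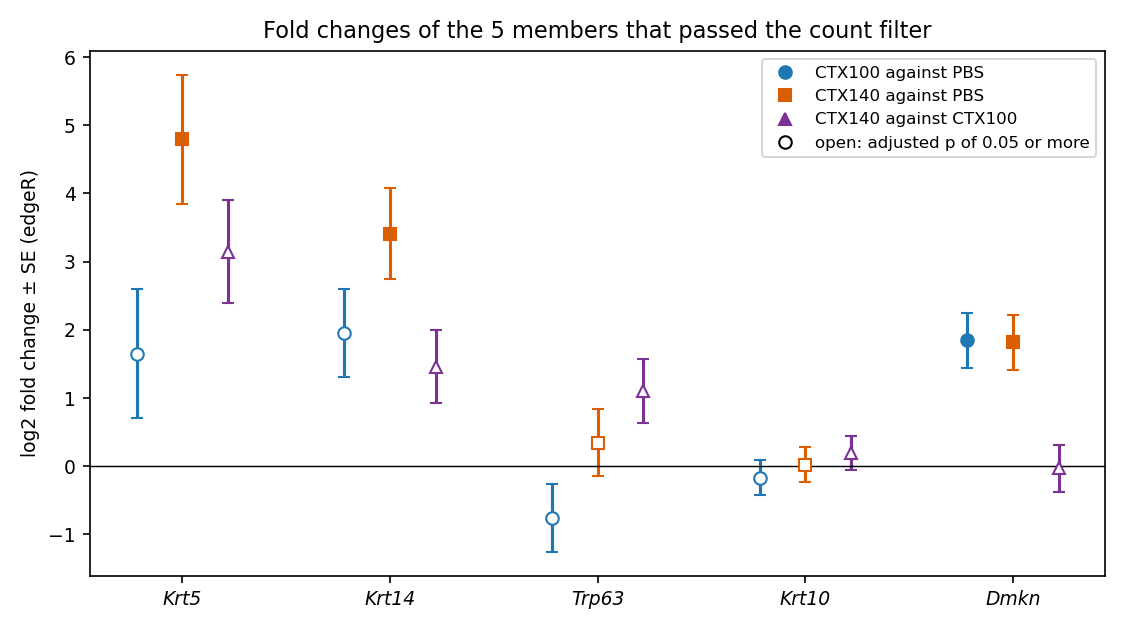
Log2 fold change with 1 SE (edgeR) of the 5 genes that passed the count filter, for CTX100 against PBS, CTX140 against PBS and CTX140 against CTX100, filled where the adjusted p was under 0.05. Krt5 and Krt14 had their largest fold changes in CTX140 against PBS, Dmkn had 1.85 and 1.82 in the comparisons with PBS, and Krt10 lay near 0 in all 3.

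Krt10, the type I keratin of suprabasal cells, was at 3.80, 5.74, 3.91 and 3.46 CPM in PBS 1 to 4. In CTX100 1 to 5 it was at 4.71, 2.87, 2.91, 3.31 and 5.01 CPM. In CTX140 1 to 5 it was at 4.73, 2.97, 4.05, 3.96 and 5.73 CPM. The 3 groups covered nearly the same range. The log2 fold change was 0.02 ± 0.26 in CTX140 against PBS (edgeR adjusted p = 0.960), 0.19 ± 0.24 in CTX140 against CTX100 (adjusted p = 0.697) and -0.17 ± 0.26 in CTX100 against PBS (adjusted p = 0.788). The sign of both comparisons with PBS changed in some alternatives.

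Krt1, the partner of Krt10 in suprabasal cells, was almost unread. It had 0 reads in the 4 PBS libraries and 0 in the 5 CTX100 libraries, where a limit of 3 counts allows up to 0.0471 CPM in PBS and 0.0354 CPM in CTX100 and the exact Poisson 95% interval ends at 0.0579 CPM in PBS and 0.0435 CPM in CTX100. In CTX140 1 to 5 it had 0, 1, 0, 2 and 1 reads, which is 0.0481 CPM over the group (exact Poisson 95% interval 0.0131 to 0.123, counting error only). As a ratio of mean FPKM, Krt1 stood at 0.00558 of Krt10 in CTX140. The 2 partners of the suprabasal pair were thus read at very unequal levels in every group.

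Krtdap was also at the edge of detection. It had 0, 0, 4 and 0 reads in PBS 1 to 4, then 1, 0, 3, 0 and 2 in CTX100 1 to 5, and 0, 3, 3, 2 and 1 in CTX140 1 to 5. Over each group this is 0.0627 CPM in PBS (exact Poisson 95% interval 0.0171 to 0.161), 0.0707 CPM in CTX100 (0.0260 to 0.154) and 0.108 CPM in CTX140 (0.0495 to 0.206). The intervals overlap, and no difference between groups was detectable at this depth.

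Dmkn, the third gene called at CTX140 and a neighbour of Krtdap, was at 1.57, 0.478, 0.349 and 1.15 CPM in PBS 1 to 4. In CTX100 1 to 5 it was at 1.51, 3.35, 3.76, 3.96 and 3.71 CPM. In CTX140 1 to 5 it was at 2.28, 3.09, 3.68, 3.28 and 3.59 CPM. Both drug groups stood at a similar level, above PBS except for CTX100 1, which lay within the PBS range. The log2 fold change was 1.82 ± 0.40 in CTX140 against PBS (edgeR adjusted p = 0.00559) and 1.85 ± 0.40 in CTX100 against PBS (adjusted p = 0.0339). CTX140 against CTX100 gave -0.03 ± 0.35 (adjusted p = 0.969), a value within 1 SE of 0. The CTX100 call was lost without any 1 of PBS 3, PBS 4, CTX100 2, CTX100 3, CTX100 4 or CTX100 5, with adjusted p-values up to 0.118, at log2 fold changes of 1.60 to 1.98. Sbsn (suprabasin), on the far side of Dmkn, was at 5.09 ± 2.01 CPM in CTX140 (SD, n = 5) and 0.888 ± 0.442 CPM in PBS (n = 4). Its log2 fold change was 2.51 ± 0.46 (edgeR adjusted p = 0.00169).

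Levels per transcript length placed all 7 genes far below Krt8 and Krt18. This pair of simple epithelium stood at 446 ± 52.5 FPKM for Krt8 and 456 ± 78.7 FPKM for Krt18 in CTX140 (SD, n = 5). Krt7, at 7.88 ± 1.78 FPKM, and Krt19, at 24.1 ± 24.1 FPKM, were much nearer to the 7 genes. In the same libraries Krt14 stood at 4.32 ± 2.07, Krt5 at 3.88 ± 2.31, Krt10 at 2.02 ± 0.479, Dmkn at 1.45 ± 0.260 and Trp63 at 0.364 ± 0.0923 FPKM. The spreads over libraries of Krt14 and Krt5 overlapped there, as did those of Krt10 and Dmkn. Such spreads leave out that the genes were read in the same libraries. Krt5 was 0.0298% of the Krt8 level in PBS, 0.0761% in CTX100 and 0.869% in CTX140. The order of group means within the 7 genes changed with dose. In PBS, Krt10 led at 1.99 ± 0.484 FPKM (n = 4), with Krt14 at 0.409 ± 0.273, Dmkn at 0.403 ± 0.261, Trp63 at 0.290 ± 0.277 and Krt5 at 0.138 ± 0.142. The spreads of the last 4 overlapped, but within single PBS libraries Krt5 was at 0 to 0.500 of Krt14. In CTX100, Krt10 at 1.77 ± 0.484, Krt14 at 1.55 ± 1.12 and Dmkn at 1.48 ± 0.454 FPKM had overlapping spreads. Krt5 at 0.427 ± 0.428 and Trp63 at 0.169 ± 0.0272 had lower means. Krt14 stood at 0.205 of Krt10 in PBS, 0.877 in CTX100 and 2.13 in CTX140, as ratios of mean FPKM.

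**Figure D3:**
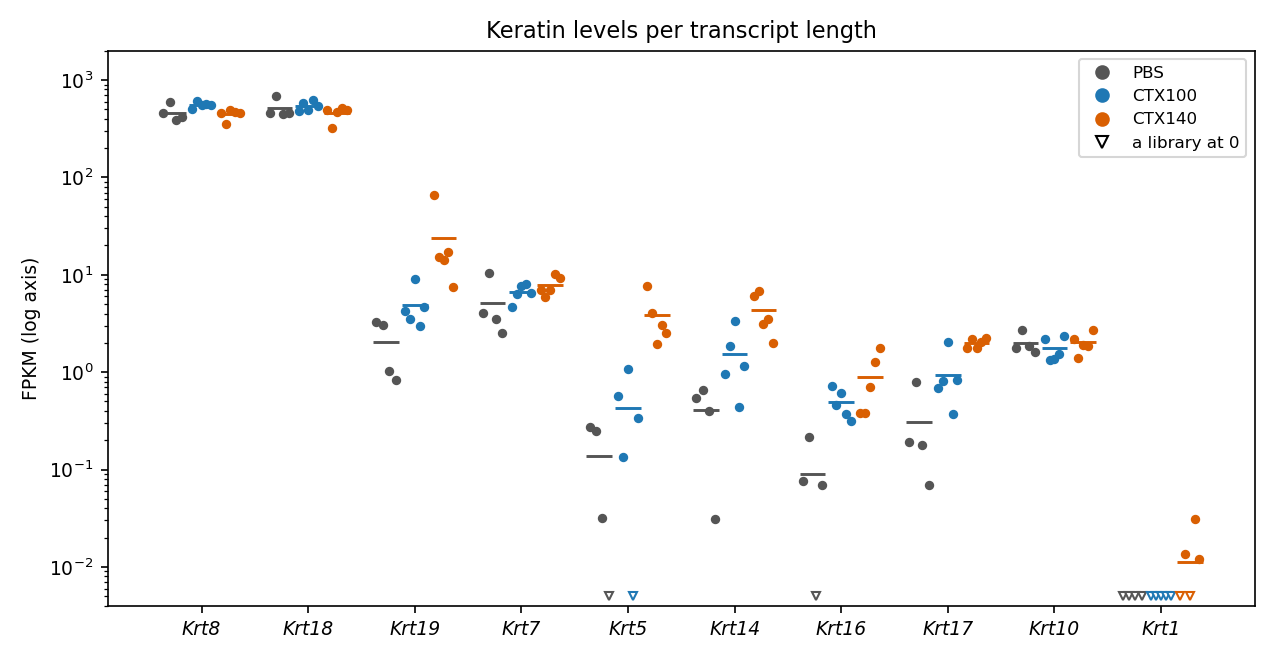
FPKM on a log axis of 10 keratins in every library, with a point per library, a line at the group mean and open triangles at the lower edge for libraries at 0. Krt8 and Krt18 lie above all others in every group, Krt5 and Krt14 have their lowest mean in PBS and their highest in CTX140, Krt10 stays level and Krt1 is at or near 0.

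The epidermal label was checked against longer lists of layer markers. Of 15 basal epidermis genes 14 were tested, and in CTX140 against PBS 5 were called higher and 2 lower, with a median log2 fold change of 0.23 (0.02 over all genes). Lamb3, a laminin chain of the basement membrane, rose by 2.43 ± 0.31 (edgeR adjusted p = 0.000165), and Trim29 by 2.54 ± 0.54 (adjusted p = 0.00433). The hemidesmosome integrins Itga6 and Itgb4 fell, with log2 fold changes of -0.52 ± 0.09 (adjusted p = 0.00150) and -0.89 ± 0.19 (adjusted p = 0.00460). Called genes of the basal list thus lay in both directions. Over all genes tested, 11.1% were called higher and 10.1% lower in CTX140 against PBS, and 1.2% and 0.397% in CTX100 against PBS. These shares apply to the lists below as well. At CTX100, 1 of the 14 was called higher, Lamb3, at 1.85 ± 0.30 (adjusted p = 0.0158), and 0 lower. At an unadjusted p under 0.05 these counts were 5 higher and 2 lower, and DESeq2 and limma called 1 higher and 0 lower.

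Genes of the differentiated and cornified layers were uneven in level. Of 33 listed, 10 had 0 reads in every library (Krt2, Flg2, Hrnr, Casp14, Kprp, Klk5, Skint3, Lce1a1, Lce1b and Lce3c), 17 had some reads but did not pass the filter, and 6 were tested. Of the 17, 11 had 10 reads or fewer in each group, among them loricrin (Lor), with 7 reads in all CTX140 libraries together and 0 in PBS, and filaggrin (Flg), with 1 read in CTX140 and 1 in PBS. The other 6 had more reads in CTX140 than in PBS. These were Sprr1a with 92 in CTX140 and 0 in PBS, Aloxe3 with 49 in CTX140 and 11 in PBS, Klk7 with 24 in CTX140 and 8 in PBS, Krt78 with 23 in CTX140 and 3 in PBS, Elovl4 with 17 in CTX140 and 2 in PBS, and Calml3 with 14 in CTX140 and 1 in PBS. Sprr1a, a small proline-rich protein of the cornified envelope, had reads in all 5 CTX140 libraries and was at least 23.5-fold higher than a floor of 3 counts over PBS. Without CTX140 1, which held 55 of its reads, that bound was 11.8-fold. In CTX140 against PBS 3 of the 6 were called higher and 0 lower, with a median of 0.60. They were Sbsn, Tgm1, a transglutaminase of the cornified envelope (1.19 ± 0.21, adjusted p = 0.00140), and Asprv1, a protease that processes filaggrin (0.87 ± 0.29, adjusted p = 0.0397). The Asprv1 call was lost without any 1 of PBS 1, PBS 3, PBS 4, CTX140 3, CTX140 4 or CTX140 5, with adjusted p-values up to 0.126. At CTX100 1 of the 6 was called higher, Tgm1, at 0.88 ± 0.21 (adjusted p = 0.0477), where DESeq2 called 2 and limma 0. The list of differentiated skin was thus divided, and whether these reads came from skin was not tested. Krt1, Krt2, Flg, Flg2, Hrnr and Lor were at or near 0 in all 3 groups, while Tgm1 stood at 15.1 ± 3.05 CPM in CTX140 (SD, n = 5) and 6.61 ± 1.53 CPM in PBS (n = 4), and Asprv1 at 25.9 ± 8.21 CPM in CTX140 and 14.1 ± 3.5 CPM in PBS.

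Regulators and junction genes of stratified epithelium followed. Of 12 keratinocyte regulators 8 were tested, and in CTX140 against PBS 4 were called higher and 1 lower, with a median of 1.26, where 11.1% of all genes were called higher and 10.1% lower. Grhl1 rose by 2.71 ± 0.63 (edgeR adjusted p = 0.00708), 1.92 without CTX140 1, and Hopx by 1.34 ± 0.37 (adjusted p = 0.0181), a call lost without PBS 3 (adjusted p = 0.0568). Sfn, which encodes the 14-3-3 sigma protein and no transcription factor, rose by 1.19 ± 0.38 (adjusted p = 0.0360), a call lost in 7 of 17 alternatives, with an adjusted p of 0.0906 without CTX140 1. It was also lost without any 1 PBS library. Barx2 had 94 reads in CTX140 and 2 in PBS, both in PBS 1, a ratio of 36.0 (exact 95% counting interval 9.69 to 302). Without CTX140 1, the highest library for 5 of the 8, 2 of 7 tested were called higher and the median was 0.25. Of 15 desmosome and plaque genes 10 were tested, with 4 called higher and 2 lower and a median of 1.01. Dsp (desmoplakin) rose by 3.70 ± 0.93 (adjusted p = 0.0122), Perp by 3.01 ± 0.70 (adjusted p = 0.00725) and Dsc2 by 2.29 ± 0.57 (adjusted p = 0.0105, and 2.92 without PBS 1), while Ppl (periplakin) fell, with a log2 fold change of -0.73 ± 0.18 (adjusted p = 0.0102). Without CTX140 1 Dsp was at 2.74 and Perp at 2.10, and the desmosome median was 0.54. The Dsp call was lost with limma on log2(FPKM + 1) (adjusted p = 0.0660).

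Of 5 keratins of injured epidermis 2 were tested, and both were called higher. Krt16 was at 1.41 ± 0.953 CPM in CTX140 (SD, n = 5) and 0.143 ± 0.143 CPM in PBS (n = 4). Its log2 fold change was 3.25 ± 0.67 (edgeR adjusted p = 0.00362). Krt17 was at 3.12 ± 0.343 CPM in CTX140 and 0.480 ± 0.507 CPM in PBS, which gives a log2 fold change of 2.71 ± 0.57 (adjusted p = 0.00389). Without PBS 2 the fold changes were 4.01 for Krt16 and 3.73 for Krt17. Within CTX140, Krt16 and Krt14 did not run in parallel. In libraries 1 to 5 Krt16 stood at 0.378, 0.381, 0.707, 1.26 and 1.78 FPKM, and Krt14 at 6.06, 6.89, 3.15, 3.52 and 1.98 FPKM. Both wound keratins share sequence with Krt14, so part of their reads or of its reads may belong to the other. Krt6a, Krt6b and Krt75 did not pass the filter.

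**Figure D4:**
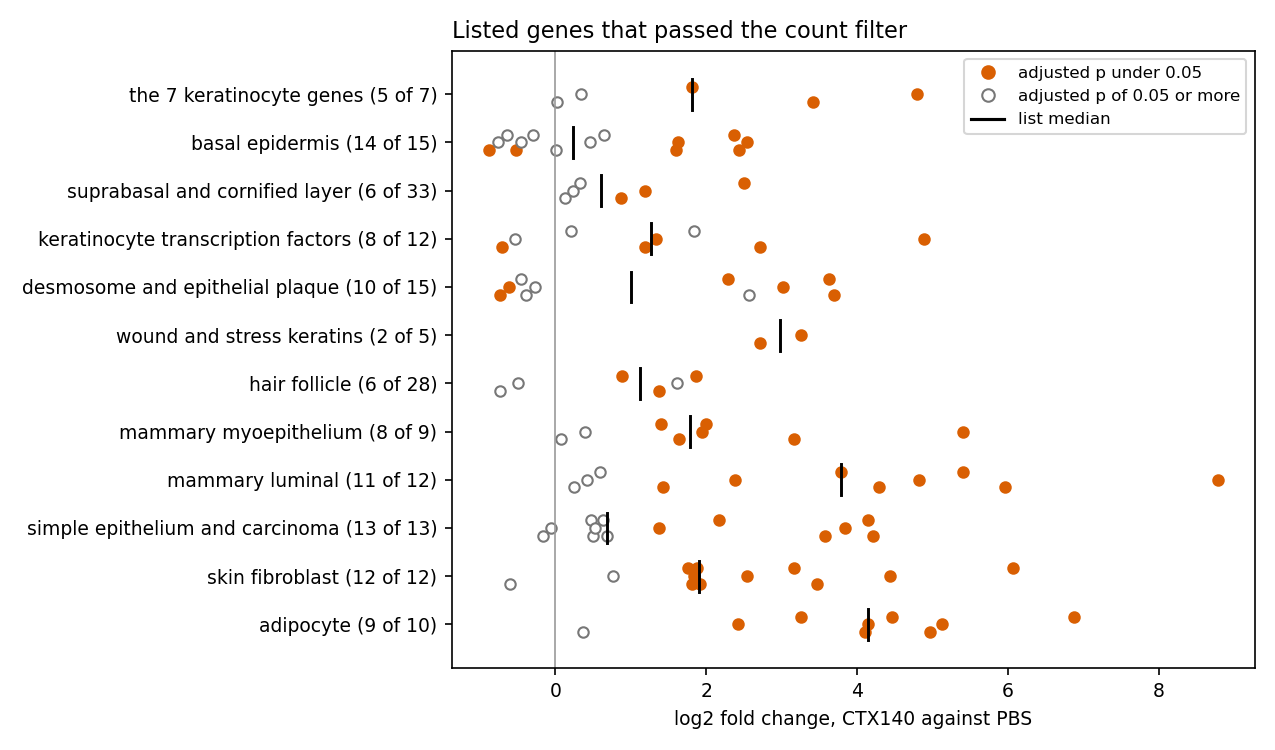
Log2 fold change in CTX140 against PBS of each tested gene of 12 lists, with the number tested of the number listed, filled where the adjusted p was under 0.05 and with a bar at the list median. The basal epidermis, regulator and desmosome lists hold called genes on both sides of 0. All other lists shown, of skin and of other cells, hold called genes on the higher side only.

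Markers of other cells of the mammary area moved with Krt5, Krt14 and Dmkn, and their part in the result was not tested. The 9 myoepithelial markers include genes also made by other contractile cells, such as Acta2. They summed to between 145 and 171 CPM in PBS libraries, 192 and 232 CPM in those of CTX100, and 207 and 253 CPM in those of CTX140. In CTX140 against PBS 6 of 8 tested were called higher and 0 lower, with a median of 1.79. Smtn, a large part of the CTX140 sums, was not called, at 0.08 ± 0.15 (edgeR adjusted p = 0.752). It stood at 94.1 CPM in CTX140 1 and a median of 124.5 CPM in the other 4 CTX140 libraries. Acta2, smooth muscle actin, rose by 1.64 ± 0.25 (edgeR adjusted p = 0.000578) and Lmod1 by 3.16 ± 0.50 (adjusted p = 0.000666), and the oxytocin receptor gene Oxtr had 197 reads in CTX140 and 3 in PBS, a ratio of 50.3 (exact 95% counting interval 17.0 to 246). CTX140 1 held 129 of these reads, and without it the ratio was 21.7 (7.13 to 108). The 12 luminal markers summed to between 54.1 and 82.8 CPM in PBS, 67.5 and 105 CPM in CTX100, and 101 and 333 CPM in CTX140. Of 11 tested, 8 were called higher and 0 lower, with a median of 3.79. Wfdc18 rose by 4.29 ± 0.64 (adjusted p = 0.000524) and Cited1 by 5.40 ± 1.19 (adjusted p = 0.00675), which was 4.05 without CTX140 1 and 7.64 without PBS 1.

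Most stromal and fat markers were also higher, and simple epithelial markers were divided. Of 13 genes of simple epithelium and carcinoma 6 were called higher and 0 lower in CTX140 against PBS, with a median of 0.68. The abundant Krt8 and Krt18 were not called, at -0.06 ± 0.14 (edgeR adjusted p = 0.796) and -0.17 ± 0.16 (adjusted p = 0.488). Among them Krt19 rose by 3.57 ± 0.68 (edgeR adjusted p = 0.00282) and Epcam by 3.85 ± 0.79 (adjusted p = 0.00449). Without CTX140 1 these were 2.72 and 2.81. Of 12 skin fibroblast markers 10 were called higher, with a median of 1.90, and all 12 summed to between 630 and 1022 CPM in PBS, 1131 and 1913 CPM in CTX100, and 1950 and 5458 CPM in CTX140. Of 9 tested adipocyte markers 8 were called higher, with a median of 4.15, and the 10 listed summed to between 22.6 and 72.4 CPM in PBS, 63.2 and 210 CPM in CTX100, and 128 and 774 CPM in CTX140. Dpt, of the fibroblast list, rose by 4.44 ± 0.58 (adjusted p = 0.000329, and 5.14 without PBS 1), and Adipoq, the fat cell hormone adiponectin, by 4.46 ± 0.71 (adjusted p = 0.000948).

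Lists of other cells of skin rested on few tested genes. Of 28 hair follicle genes 6 were tested and 3 called higher in CTX140 against PBS, with a median of 1.13, and 6 had 0 reads in every library (Krt28, Krt33a, Krt34, Krt35, Krtap3-1 and Hoxc13). Of 8 melanocyte genes 2 were tested and 1 was called, Sox10, which rose by 4.27 ± 0.81 (edgeR adjusted p = 0.00226), 3.56 without CTX140 1 and 5.15 without PBS 1, while the pigment enzymes Tyr and Tyrp1 and the transporter Slc45a2 had 0 reads in every library. Of 5 genes listed for Langerhans cells 4 were tested, all but Cd207, which did not pass the filter. Of the 4, 1 was called higher, Epcam, which is also a simple epithelial gene. For the sebaceous gland, edgeR called 0 of 5, as did DESeq2 and limma, and 0 passed an unadjusted p under 0.05. For skeletal muscle, the same 4 counts were 0 of 6. For red blood cell genes edgeR called 0 of 6, with 1 at an unadjusted p under 0.05, 0 by DESeq2 and 1 lower by limma.

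The library CTX140 1 stood apart for many of these markers. It also had the highest share of counts in mitochondrially encoded genes, 9.81%, where the other 13 libraries had 3.09 to 6.87%, and the part of that share in these results was not tested. It was the highest of the 14 libraries for 10 of 11 luminal and 9 of 9 adipocyte genes, and for 2490 of 15360 genes tested. Its level was 3.83 times the median of the other CTX140 libraries for the median luminal gene and 3.10 times for the median adipocyte gene. Among the 5 tested keratinocyte genes it was highest for 1, Krt5, with a median ratio of 1.18. Without CTX140 1, Krt5, Krt14 and Dmkn were still called in CTX140 against PBS, and the markers called higher were 7 of 11 luminal, 5 of 7 myoepithelial, 8 of 9 adipocyte and 10 of 12 fibroblast genes.

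The genes most like the 5 in pattern were taken by Pearson r between their log2 CPM and the mean log2 CPM of the 5, over the 14 libraries and among 12622 genes. Since the 14 libraries include the difference between groups, these values are a description. The 8 highest were Apoc1 (r = 0.965), Hp (0.957), Fxyd1 (0.953), Wfdc18 (0.952), Cd209f (0.946), Grb10 (0.943), Plin4 (0.941) and Cited1 (0.940). Without PBS 4 and CTX140 1, the libraries farthest from the median of the mean, r ran from 0.899 for Plin4 to 0.948 for Hp and Cd209f. The mean log2 CPM of the 5 was highest in the 5 CTX140 libraries, and the next was CTX100 3.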

How the data were processed

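RNA was measured in 14 tumour libraries, grouped by the labels. The authors deposited whole-number read counts per gene, which are not normalised, and FPKM. Tested on the files, each FPKM equals the count divided by the gene length and 1 constant per library. Per the submitters' processing notes the build was mm10, and DESeq2 is listed among the tools without saying what it was used for. No source used here gives the aligner, the counter or the strand setting.

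Counts were tested with edgeR 4.0.16 in R 4.3.3, with TMM factors, filterByExpr by group, a mean per group over all 14 libraries in 1 fit, and robust quasi-likelihood F-tests (two-sided). P-values were adjusted by Benjamini and Hochberg's method over 15360 genes. Calls were made at an adjusted p under 0.05. The SE of a log2 fold change is its absolute value divided by the square root of F, which edgeR itself does not give. The script was tested on simulated data. The main fit did not pair libraries by replicate number. Correlations of same-numbered deviations ran from -0.193 to 0.431. Differently numbered libraries were not compared, so these values do not settle whether the numbers pair libraries. Alternatives used RLE factors, other filters, DESeq2 1.42.0, limma 3.58.1 on log2 of FPKM plus 1 or 0.1, fits of 2 groups, a replicate block and left-out libraries. Up to 4 tested genes per list with the smallest p in CTX140 against PBS could be named, besides genes at 0, the 8 genes most like the members and neighbouring keratins. Suprabasal genes with reads but no test, Krt7, Krt8, Krt18, Cd207 and Smtn were named after their values were seen. The members and the 16 lists were chosen with earlier results of these data known. No library was left out of the main values. Counting intervals cover counting error only. Some shared sequence is not reported here.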

Additional observations from a re-analysis of the deposited data

Results flagged for a closer look

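For the 7 keratinocyte genes and the 27 other genes with fold changes above, each group was checked for 1 library far from the rest by Dixon's criterion. Independent, normally distributed values meet it in about 1 in 20 groups. Here the values were CPM, some from a few reads, and all genes share the same libraries. That rate thus gives no expected number here. The criterion was met 20 times in 100 groups, 10 of them at CTX140 1. Among the 7 genes it was met by Krtdap in PBS 3, at 0.280 CPM where the other PBS libraries were at 0, and by Dmkn in CTX100 1, at 1.51 CPM where the next library was at 3.35 CPM.

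In CTX140 1 the highest values of the group were 7.73 CPM for Grhl1, 9.29 for Sfn, 8.09 for Perp, 12.8 for Dsp, 7.73 for Oxtr, 125 for Krt19, 61.9 for Epcam, 17.9 for Wfdc18, 64.3 for Cited1 and 6.53 for Sox10. The next libraries of that group were at 1.90 CPM for Grhl1, 12.6 for Epcam and 8.71 for Cited1. CTX140 2 was high for Acta2, at 102 CPM.

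In CTX100 3, Krt17 was at 3.16 CPM, Krt19 at 16.9 CPM and Cited1 at 5.71 CPM, each the highest of its group. In PBS, Barx2 was at 0.121 CPM in PBS 1 and at 0 elsewhere, Dsp was at 0.603 CPM in PBS 1, Hopx was at 2.47 CPM in PBS 4, and Wfdc18 was lowest in PBS 4, at 0.0549 CPM.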

How the results depend on the processing

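In CTX140 against PBS, Krt5, Krt14 and Dmkn were called in every alternative and without any 1 library. In CTX100 against PBS, 1 of the 7 genes was called, 2 by DESeq2, 0 with the replicate block (Dmkn 1.79, adjusted p = 0.0774) and 0 to 1 without 1 library. In CTX140 against CTX100, 0 were called, but 1, Krt5, with the filter of 1 CPM in 4 libraries, DESeq2, limma with either pseudocount or the replicate block (3.33, adjusted p = 0.0466), and 0 to 1 without 1 library. The replicate block changed no other call of the 7 genes.

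Signs near 0 turned. Krt10 in CTX140 against PBS was -0.0029 with no filter, -0.11 with the replicate block and -0.10 to 0.20 without 1 library, and in CTX100 against PBS it was -0.29 to 0.012 without 1 library. Trp63 was -0.045 to 1.21 in CTX140 against PBS and -1.14 to 0.11 in CTX100 against PBS without 1 library. Dmkn in CTX140 against CTX100 was 0.000615 with limma on log2(FPKM + 1), 0.024 with log2(FPKM + 0.1) and -0.21 to 0.068 without 1 library. The cause was not tested.

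All genes called in CTX100 against PBS numbered 245, 821 by DESeq2, 148 by limma on log2(FPKM + 1), 529 with 2 groups fitted, and 17 to 686 without 1 library. In CTX140 against PBS they numbered 3268, 1878 with 2 groups fitted, and 1975 to 3894 without 1 library. In CTX140 against CTX100 they numbered 192, 1264 by DESeq2, 293 with the replicate block, and 0 to 1007 without 1 library. Among the other named genes the call was lost in 20 of 449 values, those of Asprv1, Sfn, Hopx, Dsp and Oxtr. Settings in which a gene was not tested or had no adjusted p are left out of the 449. Barx2 thus had 12 values, Oxtr 14, and Cited1 and Krt16 16 each, where the other named genes had 17. Krt1 and Krtdap had 9 reads or fewer per group, which limits what can be said of them.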
